A study of Mus musculus with 36 samples.

Results

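Metallothioneins and the genes around them that sense and move zinc were followed in mouse knees 24 h after the anterior cruciate ligament (ACL), which steadies the joint, was injured. The 6 genes described are Mt1, Mt2, Mtf1, Slc30a1, Slc39a8 and Slc39a14, out of 55291 gene names in the count table, and each was matched on its exact gene name. All 6 passed the filter on low counts. The list was chosen with measured values of these libraries in view: Mt1 had been selected on its counts in ACL vehicle against Sham, where it was among the called genes. How the other 5 came to be listed is not recorded. The contrast of ACL vehicle with Sham is therefore described below without a test, and nothing is read from the calls in it.

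The libraries come from 9 of the 36 samples of the series, in 3 groups with 3 biological replicates each. The ACL PKCi group holds knees of mice that underwent ACL injury and were given an inhibitor of protein kinase C (PKC), a family of kinases that respond to membrane lipids and calcium. The ACL vehicle group holds knees of mice with the same injury that were given saline. The Sham group holds knees of mice without ACL injury. All knees were collected at 24 h, and the RNA was depleted of ribosomal RNA and read as pairs. The inhibitor's name, its dose and route, and the strain, age and sex of the mice were not stated in the material used here, and the groups share no stated gene alteration.

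Metallothioneins are small, cysteine-rich proteins that bind zinc and copper and buffer the free metal in the cell. Free zinc is sensed by MTF1, a zinc finger factor that binds metal response elements in promoters and switches on metallothionein genes and the zinc exporter gene Slc30a1. SLC39 proteins carry zinc into the cytosol and SLC30 proteins carry it out or into vesicles. In mice, metallothionein genes also respond to glucocorticoids and to interleukin-6 through STAT3, Slc39a14 is an importer of the acute-phase response of the liver, and zinc import through Slc39a8 with MTF1 has been linked to matrix-degrading enzymes in cartilage.

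Mt1 and Mt2 are neighbours on mouse chromosome 8. On mm10, Mt2 spans 94172664 to 94173568 and Mt1 spans 94179082 to 94180327, both on the plus strand, with 5513 bases between them. Mtf1 lies on chromosome 4 from 124802104 to 124849800, Slc30a1 on chromosome 1 from 191906767 to 191913247 and Slc39a8 on chromosome 3 from 135825279 to 135888572, all on the plus strand. Slc39a14 lies on the minus strand of chromosome 14 from 70303469 to 70351425. Each span runs from the outermost exon bases, and values are summed over all exons of a gene, so a change in isoform was not measured. No exon of another gene on the same strand overlaps any of the 6. Mt1 and Mt2 transcripts share no run longer than 20 bases, so reads of 100 bp could be told apart.

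The promoter windows of Mt1, Mt2 and Slc30a1 are shown because Mt1 and Mt2 moved together across the libraries and because Slc30a1 is a textbook MTF1 target whose RNA had another pattern. The sequences are RefSeq promoter windows of GRCm38.p6, the assembly that mm10 follows, from 250 bases before to 50 bases after the RefSeq gene start, on the plus strand, which is the strand of each of these genes. Capitals mark matches to the core of the metal response element, searched as TGCACNC and TGCGCNC on both strands. A match on the opposite strand appears in capitals as its reverse complement.

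Mt1, chr8:94178839-94179138: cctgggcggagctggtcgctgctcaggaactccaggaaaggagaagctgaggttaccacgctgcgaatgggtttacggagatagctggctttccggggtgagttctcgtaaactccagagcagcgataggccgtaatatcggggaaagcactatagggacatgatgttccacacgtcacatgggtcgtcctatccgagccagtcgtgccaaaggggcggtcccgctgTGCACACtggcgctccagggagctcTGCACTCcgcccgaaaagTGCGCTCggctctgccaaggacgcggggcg

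Mt2, chr8:94172368-94172667: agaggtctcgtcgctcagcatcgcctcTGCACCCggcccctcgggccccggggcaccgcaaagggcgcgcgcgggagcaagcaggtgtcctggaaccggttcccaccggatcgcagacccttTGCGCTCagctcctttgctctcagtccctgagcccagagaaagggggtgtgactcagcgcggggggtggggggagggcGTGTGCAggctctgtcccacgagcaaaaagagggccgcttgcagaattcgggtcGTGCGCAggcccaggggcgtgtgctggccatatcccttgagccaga

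Slc30a1, chr1:191906531-191906830: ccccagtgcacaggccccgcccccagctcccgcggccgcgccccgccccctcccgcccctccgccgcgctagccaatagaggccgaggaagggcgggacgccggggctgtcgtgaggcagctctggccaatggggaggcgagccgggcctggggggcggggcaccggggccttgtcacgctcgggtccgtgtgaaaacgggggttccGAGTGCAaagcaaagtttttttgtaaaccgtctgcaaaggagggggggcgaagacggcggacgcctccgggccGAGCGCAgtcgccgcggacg

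The Mt1 window held 3 matches, all on the gene's own strand, beginning 23 bases before and 3 and 21 bases after the RefSeq start. The Mt2 window held 4 matches, 2 of them on the gene's strand. They began 223, 128 and 50 bases before the start and 5 bases after it. The Slc30a1 window held 2 matches on the opposite strand, at 43 bases before and 31 bases after the start. Of 32841 RefSeq windows of the same length, 25.7% held at least 1 match, 7.12% at least 2, 1.97% at least 3 and 0.518% at least 4. The Mtf1 window held none, and 1 of the 2 windows of Slc39a8 held 1. A match is a run of letters and not a measured site of binding. Where transcription starts in these knees was not measured. Matches outside the windows were not searched, so the counts are not totals for a promoter. The RefSeq start of Mt2 lies 46 bases before the first exon base used for counting.

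**Figure D1:**
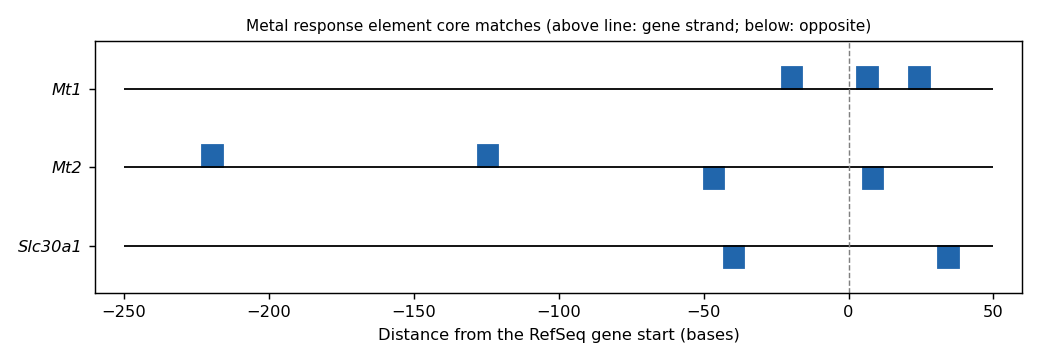
Positions of metal response element core matches in the promoter windows of Mt1, Mt2 and Slc30a1. The x axis gives the distance from the RefSeq gene start in bases, boxes above a line are matches on the gene's strand and boxes below it are matches on the opposite strand. The 3 matches of Mt1 lie within 23 bases before and 27 bases after the RefSeq start, while those of Mt2 spread over the window. Matches outside the windows were not searched.

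Values are given as normalised counts, that is, raw counts rescaled to a common effective library size, the mean over the 9 libraries. Library totals were 124 to 202 M counts, of which 91.2% to 98.2% fell on genes of 7SL RNA. That share was 91.5% and 91.2% in ACL PKCi 1 and 2 and 96.7% to 98.2% in the other libraries. Scaling factors were 1.73 and 3.64 in ACL PKCi 1 and 2 and 0.63 to 1.01 in the others, so composition differed within the inhibitor group. Genes of U3 RNA took 9.14% to 53.6% of the counts outside 7SL, the most in ACL PKCi 1. Protein-coding genes held 1.11 to 4.57 M counts per library. A single read pair was worth 0.39 to 1.89 normalised counts. The tissue is labelled knee joint, and a protocol text on other samples calls it cartilage. Markers of cartilage, bone, muscle, marrow and fat were all counted, and Lep, at 0 in ACL PKCi 3 and ACL vehicle 2, was the only marker without a count in a library. ACL PKCi 1 stood apart, with the highest summed level of skeletal muscle markers (36528 normalised counts, against 3099.6 for the lowest ACL PKCi library, 6683 to 8492 in ACL vehicle and 11017 to 27698 in Sham). That library also had the highest summed level of adipocyte markers (2736, against at most 1522 in Sham and 1110 in ACL vehicle). The same held for endothelial markers (2152, against at most 896 in Sham and 626 in ACL vehicle). In whole-joint RNA, fewer cells of a type and less RNA per cell cannot be told apart.

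RNA of Mt1 and Mt2, which encode the zinc-binding proteins themselves, stood higher in every injured knee than in every sham knee, with or without the PKC inhibitor. Mt1 was counted at 349, 1100.5 and 683 normalised counts in ACL PKCi 1, 2 and 3, at 1279, 672 and 705 in the ACL vehicle libraries and at 155, 159 and 113 in the Sham libraries. The lowest injured library, ACL PKCi 1, still lay above the highest Sham library, and the ACL PKCi and ACL vehicle libraries overlapped. Mt1 averaged 885 ± 342 normalised counts in ACL vehicle and 142 ± 25.2 in Sham (SD, n = 3 each), a fitted log2 fold change of 2.63 with a standard error (SE) of 0.42.

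Mt2 was counted at 372, 1218 and 835 normalised counts in ACL PKCi 1, 2 and 3, at 1542, 736 and 854 in the ACL vehicle libraries and at 59.3, 155 and 52.8 in the Sham libraries. The libraries of each group had the same order as for Mt1, with ACL PKCi 2, ACL vehicle 1 and Sham 2 highest in their groups. ACL vehicle 1 was the highest of all 9 for both genes. Mt2 averaged 1044 ± 435 normalised counts in ACL vehicle and 88.9 ± 57.0 in Sham (SD, n = 3 each), a fitted log2 fold change of 3.54 (SE 0.62). The Sham values rest on 28 to 118 reads per library for Mt2 and on 60 to 133 for Mt1.

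**Figure D2:**
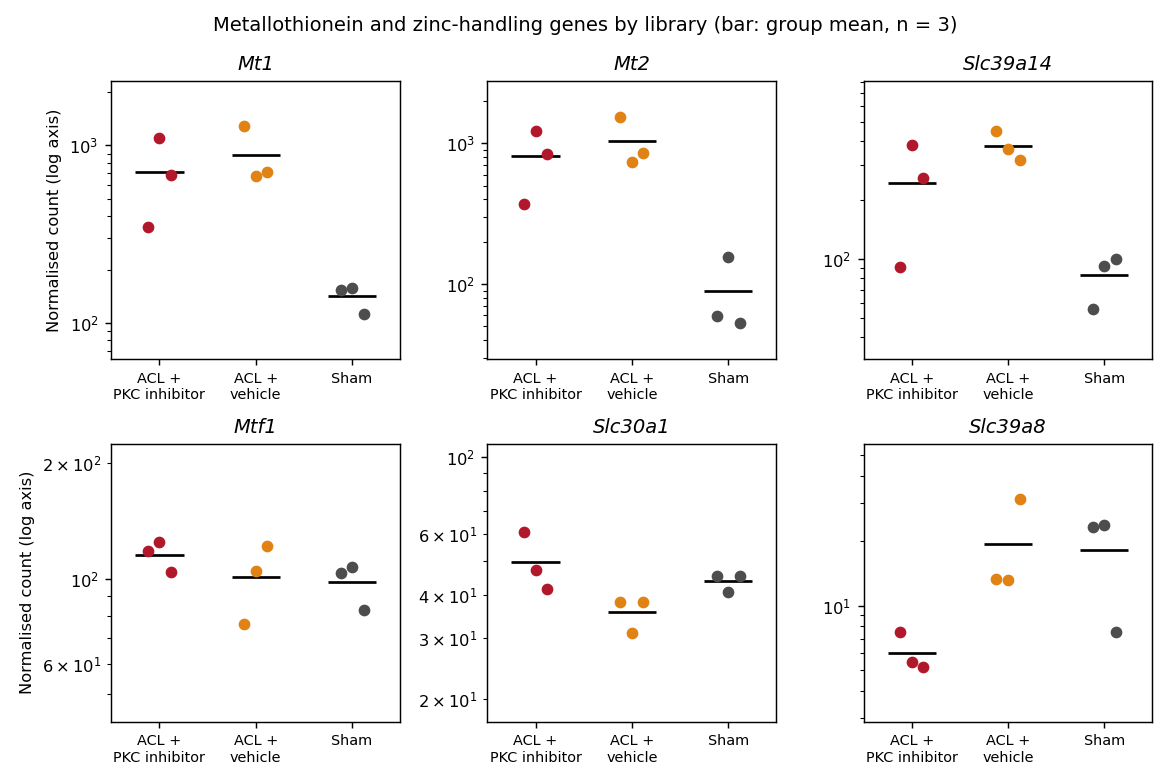
Normalised counts of the 6 genes in each library, on log axes that differ between panels. Points are libraries, coloured by group (ACL with PKC inhibitor, ACL with vehicle, Sham), and bars are group means of 3 libraries. Mt1 and Mt2 lie higher in all 6 injured libraries than in the 3 Sham libraries, and Slc39a14 in 5 of 6.

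With the PKC inhibitor, Mt1 and Mt2 did not differ from vehicle beyond the spread between libraries. Mt1 averaged 711 ± 377 normalised counts in ACL PKCi and 885 ± 342 in ACL vehicle (SD, n = 3 each), a log2 fold change of −0.31 (SE 0.39, 95% interval −1.18 to 0.55, adjusted p = 0.773 by edgeR's quasi-likelihood test with Benjamini-Hochberg adjustment, as for every adjusted p here). Mt2 averaged 808 ± 424 in ACL PKCi and 1044 ± 435 in ACL vehicle, a log2 fold change of −0.37 (SE 0.55, 95% interval −1.64 to 0.91, adjusted p = 0.822). Without ACL PKCi 1, the log2 fold change of Mt1 was 0.02 and that of Mt2 −0.01. Without ACL vehicle 1, they were 0.05 and 0.02. They were −0.80 and −0.81 without ACL PKCi 2 and −0.49 and −0.58 without ACL vehicle 2, and did not pass in any of these fits.

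Against Sham, the inhibitor-treated knees held more of both. Mt1 rose, at 711 ± 377 normalised counts in ACL PKCi against 142 ± 25.2 in Sham (SD, n = 3 each), 4.98-fold (log2 fold change 2.32, SE 0.42, adjusted p = 0.0175). Mt2 rose 9.02-fold, at 808 ± 424 in ACL PKCi against 88.9 ± 57.0 in Sham (log2 fold change 3.17, SE 0.61, adjusted p = 0.0349). This comparison uses the same Sham libraries as the injury contrast that had already marked Mt1, so it is not independent of it. The call of Mt1 ended without Sham 1, 2 or 3 (adjusted p = 0.0773, 0.0546 and 0.0903). The call of Mt2 ended without ACL PKCi 2 or 3 (0.0815 and 0.0685), ACL vehicle 2 or 3 (0.0523 and 0.0585) or Sham 1 or 3 (0.126 and 0.119), while its log2 fold change stayed between 2.75 and 3.84. ACL PKCi 1, the library richest in muscle markers, was the lowest injured library for both genes. With the muscle marker level as a covariate, the log2 fold change of ACL PKCi over Sham was 1.85 for Mt1 (adjusted p = 0.000613) and 2.67 for Mt2 (adjusted p = 0.0181). That level was measured in the same knees after treatment. Summed muscle markers did not overlap between ACL vehicle (6683 to 8492 normalised counts) and Sham (11017 to 27698). The covariate is thus tied to group, and the smaller adjusted p values add no support.

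Per kb of merged exon, Mt2 was counted above Mt1 in the injured knees, by a margin that depends on the lengths used. The ratio of Mt2 to Mt1 per kb was 2.26, 2.35 and 2.59 in the ACL PKCi libraries, 2.55, 2.32 and 2.57 in the ACL vehicle libraries and 0.81, 2.07 and 0.99 in the Sham libraries. The 6 injured libraries lay above all 3 Sham libraries, and Sham 2 lay close to the injured ones. The lengths are merged exon lengths of 588 bases for Mt2 and 1246 for Mt1, and that of Mt1 equals its whole span. In raw counts the ratio was 1.07, 1.11 and 1.22 in ACL PKCi 1, 2 and 3. It was 1.21, 1.10 and 1.21 in the ACL vehicle libraries and 0.38, 0.98 and 0.47 in the Sham libraries. The ratio per kb within a library thus depends on these lengths and on which isoforms are present. The factor by which it differs between libraries does not depend on the lengths used. Across the 9 libraries, Mt1 and Mt2 had a Pearson correlation of 0.98 on log2 CPM (counts scaled to effective library size), and of 0.85 after group means were taken out (n = 9 libraries that share the scaling of each library).

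**Figure D3:**
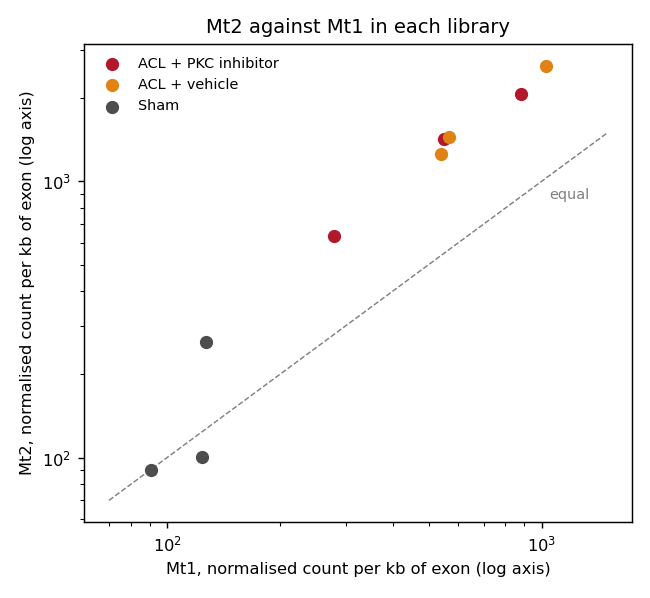
Mt2 against Mt1 in each library, in normalised counts per kb of exon on log axes, with points coloured by group and a dashed line where the genes are equal. All 6 injured libraries lie above the line at ratios from 2.26 to 2.59, and Sham 1 and 3 lie at 0.81 and 0.99. Where points lie against the line depends on the exon lengths used.

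The rest of the metallothionein family was low. Mt3, best known from brain, and Mt4, from stratified epithelium, lie in the same cluster on chromosome 8 and are named here after their values were seen. Mt3 averaged 66.6 ± 45.6 normalised counts in ACL PKCi, 34.6 ± 32.2 in ACL vehicle and 34.2 ± 23.3 in Sham (SD, n = 3 each). Its groups overlapped, and its log2 fold change was 0.96 for ACL PKCi over ACL vehicle (SE 0.80) and −0.07 for ACL vehicle over Sham (SE 0.83). Mt4 had 2 reads in all 9 libraries, both in ACL PKCi 2, and did not pass the filter.

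Mtf1, the zinc sensor, overlapped between the 3 groups and had the smallest ratio of highest to lowest library among the 6 genes. It was counted at 118, 125 and 104 normalised counts in ACL PKCi 1, 2 and 3, at 76.4, 105 and 121 in the ACL vehicle libraries and at 104, 108 and 83.0 in the Sham libraries. The lowest and the highest library but ACL PKCi 2 were both ACL vehicle libraries. Its log2 fold change was 0.20 for ACL PKCi over ACL vehicle (95% interval −0.30 to 0.70, adjusted p = 0.761), 0.24 for ACL PKCi over Sham (adjusted p = 0.654) and 0.04 for ACL vehicle over Sham. These are levels of the RNA, and the activity of the protein was not measured.

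Slc39a14, which encodes the importer ZIP14, had a pattern like that of the metallothioneins. It was counted at 91.5, 381 and 257 normalised counts in ACL PKCi 1, 2 and 3, at 447, 365 and 318 in the ACL vehicle libraries and at 55.8, 91.8 and 100.0 in the Sham libraries. The ACL vehicle libraries all lay above Sham, while ACL PKCi 1 lay within the Sham range. Slc39a14 averaged 377 ± 65.4 normalised counts in ACL vehicle and 82.5 ± 23.5 in Sham (SD, n = 3 each), a log2 fold change of 2.20 (SE 0.47).

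Slc39a14 averaged 243 ± 145 normalised counts in ACL PKCi, and its log2 fold change over ACL vehicle was −0.62 (SE 0.44, 95% interval −1.60 to 0.36, adjusted p = 0.574). Over Sham it was 1.58 (SE 0.46, adjusted p = 0.102), which did not pass. It passed in DESeq2 (log2 fold change 1.58, adjusted p = 0.00669). Without ACL PKCi 1, it was 1.98 and passed in edgeR (adjusted p = 8.53e-05), and with the muscle marker level as a covariate it was 0.97 (adjusted p = 0.0668). Across libraries Slc39a14 correlated with Mt1 at 0.92 and with Mt2 at 0.90, and at 0.77 and 0.73 after group means were taken out (n = 9).

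Slc39a8, which encodes the importer ZIP8, was scarce and ran a different course. It had 10, 14 and 4 reads in ACL PKCi 1, 2 and 3, 8, 11 and 23 in the ACL vehicle libraries and 20, 18 and 4 in the Sham libraries. Scaled, these are 7.50, 5.45 and 5.19 normalised counts in ACL PKCi, 13.3, 13.1 and 31.4 in ACL vehicle and 23.3, 23.6 and 7.54 in Sham. Every ACL PKCi library lay below every ACL vehicle library, and ACL PKCi 1 and Sham 3 were almost level. The log2 fold change was −1.65 for ACL PKCi over ACL vehicle (SE 0.62, 95% interval −2.97 to −0.33, unadjusted p = 0.0176 by edgeR's quasi-likelihood test), and it did not pass after adjustment (adjusted p = 0.246). Against Sham it was −1.59 (SE 0.62, adjusted p = 0.180), and for ACL vehicle over Sham 0.06. In the same libraries the 9 tested cartilage markers all had a negative log2 fold change for ACL PKCi over ACL vehicle, with a summed level of 1640 to 4445 normalised counts in ACL PKCi, 7483 to 10173 in ACL vehicle and 7752 to 23637 in Sham. This was not particular to cartilage. All 9 osteoblast and osteocyte, 8 erythroid and 6 tested B lineage markers had negative values too. Positive values were found for all 10 skeletal muscle, 6 of 7 adipocyte and 5 of 6 endothelial markers, and the other lists were mixed. The part of these marker differences in the Slc39a8 values was not tested.

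Slc30a1, which encodes the exporter ZnT1 of the plasma membrane, was counted at 60.8, 47.1 and 41.5 normalised counts in ACL PKCi 1, 2 and 3, at 38.2, 30.9 and 38.2 in the ACL vehicle libraries and at 45.3, 40.6 and 45.3 in the Sham libraries. The ACL vehicle libraries were the lowest of the 3 groups, with no overlap with either of the others. The log2 fold change was 0.48 for ACL PKCi over ACL vehicle (SE 0.31, 95% interval −0.18 to 1.15, adjusted p = 0.526), 0.19 for ACL PKCi over Sham (adjusted p = 0.792) and −0.29 for ACL vehicle over Sham. Slc30a1 was not counted at a higher level in ACL vehicle, where the means of Mt1 and Mt2 were highest. The inputs to these genes were not tested. The correlation of Slc30a1 with Slc39a14 was −0.55 across the 9 libraries and −0.64 after group means were taken out.

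**Figure D4:**
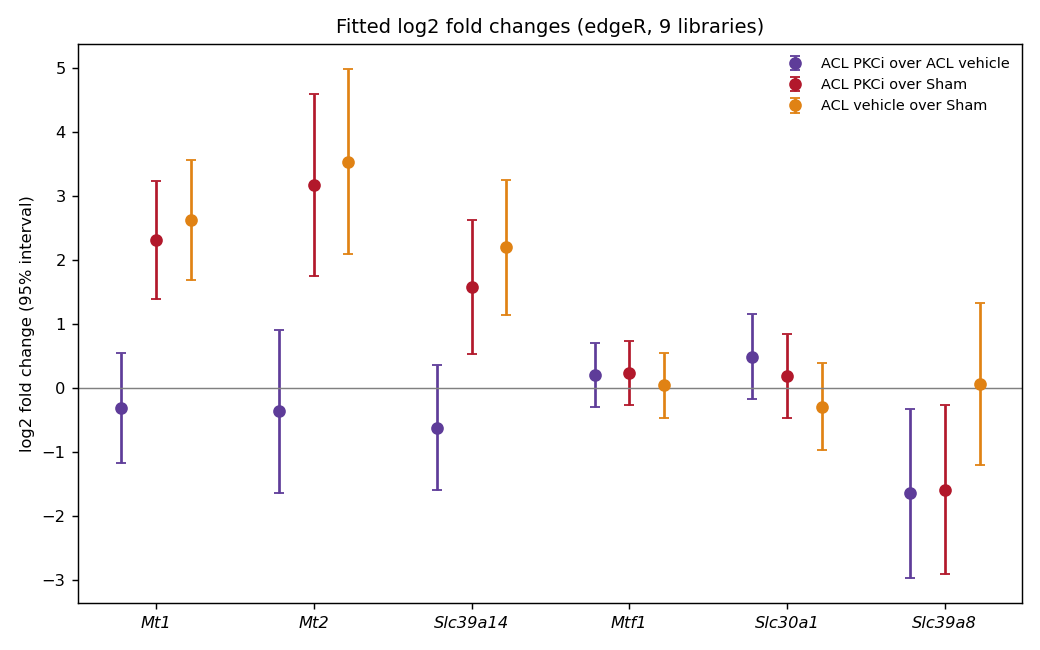
Fitted log2 fold changes of the 6 genes in the 3 comparisons, with 95% intervals from the edgeR fit of 9 libraries. Points to the left in each gene are ACL PKCi over ACL vehicle, the middle ones ACL PKCi over Sham and those to the right ACL vehicle over Sham. For ACL PKCi over ACL vehicle, the intervals of 5 genes span 0 and that of Slc39a8 runs from −2.97 to −0.33.

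Between ACL PKCi and ACL vehicle, none of the 6 genes passed in edgeR's test, where 0.731% of 13823 tested genes did (101 genes, 4 higher and 97 lower). At an unadjusted p under 0.05 there was 1, Slc39a8, where 13.4% of tested genes were, and DESeq2 also called none of the 6, where it called 2.57% of all tested genes. The libraries of the groups did not overlap for 2 of 6 genes, Slc30a1 on the higher side and Slc39a8 on the lower, against 18.9% of all tested genes (8.44% higher and 10.4% lower). The median log2 fold change was −0.34 over the 6 genes and 0.04 over all genes tested. Between ACL PKCi and Sham, 2 of 6 genes passed, both higher, against 3.95% of all tested genes and 1.27% on the higher side. Mt1 was selected against the same Sham libraries and the 6 genes were listed with earlier results known. The counts against Sham are thus a description and no test of the 6 genes. The groups did not overlap for 3 of 6, Mt1 and Mt2 higher and Slc39a8 lower, against 22.9% of all tested genes (11.2% higher and 11.6% lower). The median was 0.91 over the 6 genes and 0.03 over all genes. Between ACL vehicle and Sham, Mt1 was called, which its selection in that contrast had fixed, so the call is no result. Of all tested genes, 0.304% were called there, and the call of Mt1 ended in 7 of the 9 fits that left out 1 library. On normalised counts, ACL vehicle and Sham did not overlap for Mt1, Mt2, Slc39a14 and Slc30a1, where 17.0% of all tested genes did not. These last counts come from the contrast on which Mt1 was selected and carry no test. The 3 comparisons share libraries with one another.

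On a scale per kb of exon, the order of levels in ACL vehicle was Mt2, Mt1, Slc39a14, Mtf1, Slc30a1 and Slc39a8, at means of 1775, 711, 35.7, 11.3, 6.82 and 2.51 normalised counts per kb, and no neighbours in that order overlapped between libraries. In ACL PKCi the order was the same, at means of 1375, 570.4, 23.1, 13.0, 9.50 and 0.79. There Mt2 and Mt1 overlapped between libraries, and Slc39a14, at 8.67 normalised counts per kb in ACL PKCi 1, overlapped both Mtf1 and Slc30a1. In Sham, Mt2 at 151 ± 97.0 and Mt1 at 114 ± 20.2 normalised counts per kb overlapped (SD, n = 3 each). Mtf1, Slc30a1 and Slc39a14 followed at 11.0, 8.34 and 7.82, with Slc39a14 overlapping both of the others, and Slc39a8 was the lowest at 2.37. Slc39a14 thus stood above Mtf1 in all 3 ACL vehicle libraries, in 2 of 3 ACL PKCi libraries and in 1 of 3 Sham libraries. The place of Mt2 above Mt1 depends on the exon lengths used.

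The other zinc transporters were tested as a list of 21 genes, of which 13 passed the filter and none was called by edgeR or DESeq2 in any comparison. Their log2 fold changes ran from −1.41 to 0.93 for ACL PKCi over ACL vehicle (median 0.03, lowest adjusted p = 0.371), from −0.53 to 0.90 for ACL PKCi over Sham (median 0.09, lowest adjusted p = 0.130) and from −0.95 to 1.11 for ACL vehicle over Sham (median 0.36). At an unadjusted p under 0.05, 1 of the 8 tested importers and none of the 5 tested exporters differed between ACL PKCi and ACL vehicle, and 1 of each between ACL PKCi and Sham, where 13.4% and 18.0% of all tested genes did. Slc39a14 lay outside the range of the other 13 for ACL vehicle over Sham and for ACL PKCi over Sham, and Slc39a8 lay below it in both comparisons of ACL PKCi. Slc39a7, an importer that releases zinc from the endoplasmic reticulum and the most abundant of the 13 by reads, averaged 199 ± 15.9 normalised counts in ACL PKCi, 240.5 ± 24.9 in ACL vehicle and 187 ± 29.3 in Sham (SD, n = 3 each). The exporter genes Slc30a2, Slc30a3, Slc30a8 and Slc30a10 and the importer genes Slc39a2, Slc39a4, Slc39a5 and Slc39a12 did not pass the filter.

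**Figure D5:**
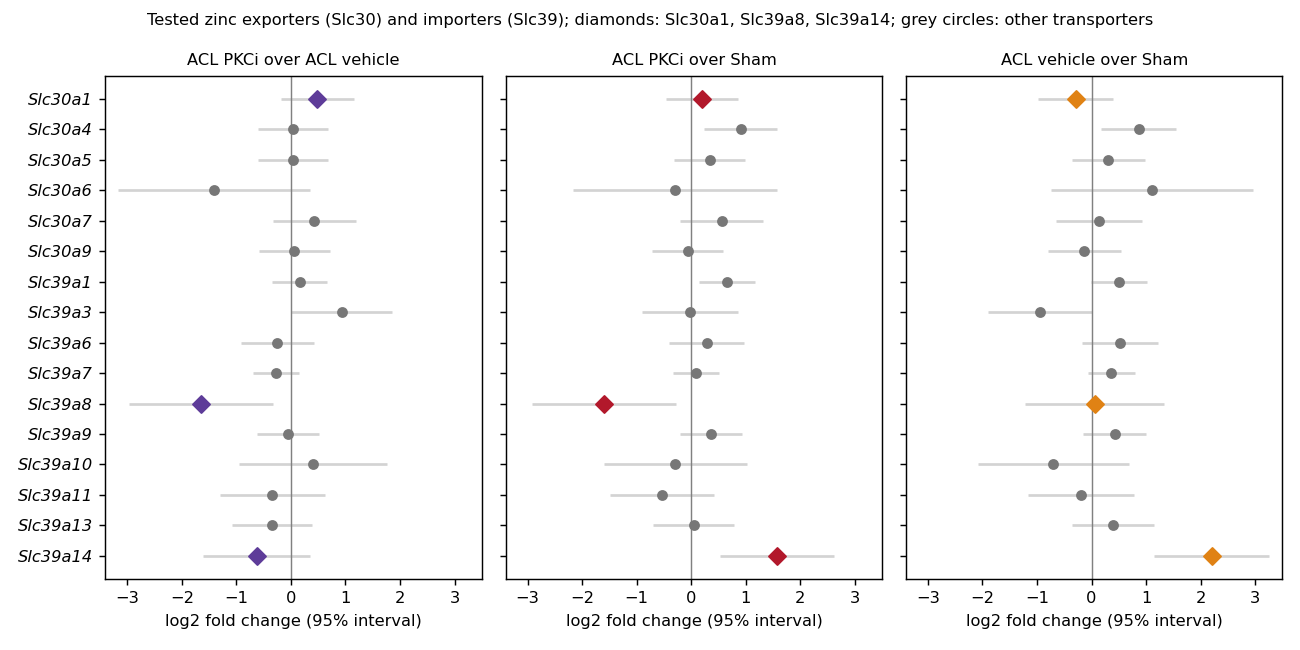
Log2 fold changes with 95% intervals of the 16 tested zinc transporter genes, exporters (Slc30) above importers (Slc39), in the 3 comparisons. Coloured diamonds are Slc30a1, Slc39a8 and Slc39a14 and grey circles are the 13 others. Slc39a14 is the farthest to the right for ACL PKCi over Sham and for ACL vehicle over Sham, and Slc39a8 the farthest to the left in both ACL PKCi panels.

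None of the 6 other genes on the list of known MTF1 targets was called by edgeR or DESeq2 in any comparison. All 6 passed the filter, and 2 had an unadjusted p under 0.05 for ACL PKCi over ACL vehicle, 2 for ACL PKCi over Sham and none for ACL vehicle over Sham. Over all tested genes those shares were 13.4%, 18.0% and 8.28%. In both comparisons of ACL PKCi the 2 genes were Csrp1, higher, and Gclc, lower. The list had medians of 0.31 for ACL PKCi over ACL vehicle, 0.30 for ACL PKCi over Sham and −0.10 for ACL vehicle over Sham. Csrp1, a LIM-domain protein of the actin cytoskeleton, averaged 363 ± 67.9 normalised counts in ACL PKCi, 263 ± 43.1 in ACL vehicle and 259 ± 43.1 in Sham (SD, n = 3 each). Gclc, the catalytic subunit of the enzyme that starts glutathione synthesis, is named after its values were seen. It averaged 125 ± 70.1 in ACL PKCi, 196 ± 17.7 in ACL vehicle and 222 ± 34.0 in Sham. Selenow, a small selenoprotein, averaged 469 ± 178 in ACL PKCi, 339 ± 97.4 in ACL vehicle and 345 ± 72.1 in Sham. Ndrg1, a stress-responsive gene, averaged 164 ± 21.7 in ACL vehicle and 192 ± 44.6 in Sham, and Slc40a1, the iron exporter ferroportin, 158 ± 40.8 in ACL vehicle and 225 ± 38.1 in Sham. Copper handling genes, 9 of 9 tested, had no call by either tool and 1, 1 and 0 genes at an unadjusted p under 0.05 in the same order of comparisons, with medians of 0.22, 0.09 and −0.05.

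Of 9 iron handling genes 8 were tested, and Fth1, the ferritin heavy chain that stores iron, was the single call by edgeR, in ACL PKCi over Sham. Fth1 was counted at 4923, 7210.1 and 5993 normalised counts in ACL PKCi 1, 2 and 3, at 6409, 4712 and 5940.4 in the ACL vehicle libraries and at 2956, 3588 and 2904 in the Sham libraries. All 6 injured libraries lay above all 3 Sham libraries. Fth1 rose 1.92-fold in ACL PKCi over Sham (6042 ± 1145 against 3149 ± 381 normalised counts, log2 fold change 0.94, SE 0.25, adjusted p = 0.0442). That call ended when any 1 library other than ACL PKCi 1 was left out (adjusted p = 0.0689 to 0.171), and with only the compared groups fitted (0.117). DESeq2 called Fth1 in ACL PKCi over Sham too, and Fth1 and Hmox1, the heme-degrading enzyme, in ACL vehicle over Sham, where it called 1.12% of all tested genes. Hmox1 is named after its values were seen. The medians of the iron list were −0.01 for ACL PKCi over ACL vehicle, 0.24 for ACL PKCi over Sham and 0.30 for ACL vehicle over Sham.

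Fth1 was also the gene most like the metallothioneins across libraries among the abundant genes searched, which left out the 6 genes. Mt1 and Mt2 themselves averaged 3.19 and 3.56 CPM, so genes at their own level were not searched. Among 297 genes with a mean of at least 5 CPM, its Pearson correlation on log2 CPM was 0.96 with Mt1 and 0.97 with Mt2, the highest for each (n = 9 libraries). For Mt1 it was followed by Eif4a1 (0.94), an RNA helicase of translation initiation, Map4k4 (0.92), a stress-pathway kinase, Eif5a (0.91), a translation factor, and Anxa2 (0.91), a membrane-binding annexin. For Mt2 the same 5 genes led, in the order Fth1, Eif4a1 (0.92), Anxa2 (0.92), Eif5a (0.89) and Map4k4 (0.88). After group means were taken out, Mt1 was nearest to Ftl1-ps1 (0.99), Map4k4 (0.97), Ucp2 (0.95), Actr3 (0.93) and Rpl15 (0.90). Mt2 was then nearest to Ftl1 (0.93), Gm22133 (0.92), Rpl41 (0.92), Fth1 (0.91) and Ftl1-ps1 (0.87). Ftl1 encodes the ferritin light chain, and Ftl1-ps1 is a gene model named as its pseudogene. Reads that fit both were counted in full for each, so their values are uncertain.

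Lists for other known inputs to metallothionein genes were described in the same way. These lists were chosen with earlier results of these data known, so the shares called in them are no test of an input. Of 9 glucocorticoid-responsive genes, all tested, Errfi1 was called. This feedback inhibitor of the EGF receptor rose 3.80-fold in ACL PKCi over Sham (207 ± 47.9 against 55.0 ± 15.2 normalised counts, SD, n = 3 each, log2 fold change 1.93, SE 0.29, adjusted p = 0.00359). DESeq2 called 3 of the 9 in that comparison. Of all tested genes, edgeR called 3.95% there and DESeq2 6.44%. The medians of that list were 0.49 for ACL PKCi over ACL vehicle, 0.91 for ACL PKCi over Sham and 0.57 for ACL vehicle over Sham.

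Of 13 genes of the interleukin-6 and STAT3 response 12 were tested, Il6 itself not. The list was chosen with earlier results of these data known, and both comparisons with Sham use the same Sham libraries. The counts of calls below are thus a description and no test of this input. In ACL PKCi over Sham edgeR called 4, all higher, where it called 1.27% of all tested genes as higher, and in ACL PKCi over ACL vehicle edgeR and DESeq2 called none, nor did any have an unadjusted p under 0.05 in edgeR. DESeq2 called 7 for ACL PKCi over Sham, where it called 6.44% of all tested genes. The medians were −0.46 for ACL PKCi over ACL vehicle, 1.57 for ACL PKCi over Sham and 2.05 for ACL vehicle over Sham, and the last 2 were the same with Il11 and Saa3, which had no Sham read, set at a bound of 3 counts per library. Serpina3n, an acute-phase protease inhibitor, rose to 220.3 ± 39.1 normalised counts in ACL PKCi, against 31.6 ± 9.01 in Sham (SD, n = 3 each, log2 fold change 2.78, SE 0.32, adjusted p = 0.0012). Timp1, an inhibitor of matrix metalloproteinases, was at 232 ± 152 in ACL PKCi and 32.4 ± 1.17 in Sham (log2 fold change 2.84, SE 0.56, adjusted p = 0.0306). The call of Timp1 ended without ACL PKCi 3, ACL vehicle 1 or 3 or any Sham library (adjusted p = 0.0511 to 0.129), and with only the compared groups fitted (0.0687). Like Mt1, Mt2 and Slc39a14, Timp1 was lowest among the injured libraries in ACL PKCi 1, at 74.3 normalised counts.

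The remaining calls in that list rest on few reads in Sham. Saa3, an acute-phase serum amyloid, had 12, 117 and 18 reads in ACL PKCi 1, 2 and 3, 26, 17 and 58 in the ACL vehicle libraries and none in Sham (adjusted p = 0.0175 for ACL PKCi over Sham). Lif, a cytokine related to interleukin-6, had 6, 73 and 13 reads in ACL PKCi, 21, 17 and 12 in ACL vehicle and 1 in Sham (adjusted p = 0.0268). Both calls ended without Sham 1, 2 or 3 (adjusted p = 0.0534 to 0.0747 for Saa3 and 0.0551 to 0.121 for Lif), and that of Lif also without ACL PKCi 2 (0.104).

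Most genes of proteins that withhold metals from microbes went the other way from the metallothioneins against Sham. All 5 genes of that list were tested, and only 1 had a positive log2 fold change in either comparison with Sham. The highest value was 1.22 for ACL vehicle over Sham and 0.81 for ACL PKCi over Sham. In ACL vehicle over Sham, the groups did not overlap for 3 of the 5 on the lower side and for 1 on the higher. Over all tested genes, 17.0% did not overlap there in either direction. Ltf, the iron-binding lactoferrin of neutrophil granules, was called. Ltf was counted at 397, 591 and 440.0 normalised counts in ACL PKCi 1, 2 and 3, at 593, 939 and 776 in the ACL vehicle libraries and at 1874, 1516 and 2770.3 in the Sham libraries. Every injured library lay below every Sham library. Ltf fell to 476 ± 102 normalised counts in ACL PKCi, against 2053 ± 646 in Sham (log2 fold change −2.11, SE 0.26, adjusted p = 0.00216). Ltf, S100a8 and S100a9 of this list are also neutrophil markers, so the list is not independent of those markers. In ACL vehicle over Sham, 6 of 10 neutrophil markers lay lower without overlap and 1 of 10 had a positive log2 fold change. The summed level of the neutrophil markers was 8384 to 18490 normalised counts in ACL PKCi, 8270 to 10701 in ACL vehicle and 15596 to 20954 in Sham. The part of the neutrophil marker differences in these values was not tested. The medians of the metal-withholding list were −0.17 for ACL PKCi over ACL vehicle, −0.30 for ACL PKCi over Sham and −0.86 for ACL vehicle over Sham.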

How the data were processed

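Raw read counts per gene of 9 mouse knee libraries were taken as deposited. The authors counted read pairs on the reverse strand over exons of GENCODE M25 with featureCounts 2.0.1 per the file headers. Multi-mapping reads and reads over several genes were counted in full. HISAT2 and mm10 are named in the submitters' processing notes, with no aligner version given in the sources used here. Columns were matched to samples by name alone; the recorded counting command lists the alignments in another order. Another 27 columns match no sample label and were not used here.

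Counts were scaled by TMM and fitted together with edgeR 4.0.16 (robust quasi-likelihood, 1 mean per group) in R 4.3.3. Of 55291 gene names, 13823 passed filterByExpr and were tested, two-sided, with Benjamini-Hochberg adjustment over all of them at a threshold of 0.05. SE is the size of the log2 fold change over the root of F. The procedure was tested on simulated counts. Alternatives used DESeq2 1.42.0, other scalings and filters, covariates and left-out libraries. Correlations used log2 CPM with a prior count of 2. Tables and plots were made with Python 3.11.15, pandas 2.3.3 and matplotlib 3.10.9.

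The 6 genes and all gene lists were chosen with earlier results of these data known. Named from each list were its called genes, otherwise the 2 with the largest fold change among those with a mean of at least 1 CPM. The 5 most correlated genes needed at least 5 CPM.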

Additional observations from a re-analysis of the deposited data

How the results depend on the processing

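Over 18 alternatives, 280 of 324 gene-by-comparison values of the 6 genes kept direction and call, 19 lost and 16 gained a call and 9 changed sign. No alternative called any of the 6 genes between ACL PKCi and ACL vehicle. The counts of all called genes were 101 for ACL PKCi over ACL vehicle, 546 for ACL PKCi over Sham and 42 for ACL vehicle over Sham. In that order they were 355, 890 and 155 with DESeq2, 554, 1056 and 262 without the filter on low counts, 3, 198 and 291 with only the compared groups fitted, 325, 1155 and 205 with the muscle covariate, and 20, 174 and 301 with ACL PKCi 1 and 2 both left out. In that last setting ACL PKCi 3 is assumed to vary like the other groups. Leaving out single libraries gave 0 to 256, 141 to 841 and 1 to 234 calls. The 0, from edgeR without ACL vehicle 2, came with 1301 genes at an unadjusted p under 0.05.

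Same-numbered libraries deviated together at correlations of −0.24 to 0.07, with none of 9 over 0.1, so they share only a number. With a replicate block the counts were 103, 420 and 24. In ACL PKCi over Sham the calls of Fth1, Timp1 and Lif ended with it (adjusted p = 0.0844, 0.0694 and 0.0517), and those of Fth1 and Lif with ACL PKCi 1 and 2 left out (0.177 and 0.0554). The causes of these shifts were not tested. No value that changed sign was a called one. For ACL PKCi over ACL vehicle, leaving out single libraries gave −0.80 to 0.046 for Mt1 and −0.81 to 0.024 for Mt2. For ACL vehicle over Sham it gave −0.11 to 0.20 for Mtf1 and −0.49 to 0.30 for Slc39a8, and the muscle covariate −0.0048 for Mtf1. Slc30a1 was at −0.061 for ACL PKCi over Sham without ACL PKCi 1 and 2. The call of Mt2 in ACL PKCi over Sham also ended with only the compared groups fitted (adjusted p = 0.0686) and with ACL PKCi 1 and 2 left out (0.0870). Scaling on protein-coding genes was chosen after seeing the data and gave 103, 540 and 42 calls. Slc39a8 had 4 to 23 reads per library.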
